A study of Homo sapiens with 18 samples.

Results

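H2AK119ub and H3K27me3 were compared gene by gene in MDA-MB-231, a triple-negative breast cancer cell line with mesenchymal features. For each of 18973 protein-coding genes on chromosomes 1 to 22, of 19866 on all main chromosomes with X and Y, the share of the gene record (the span from the first to the last base of the annotated gene) under H2AK119ub peaks was set against the share under H3K27me3 peaks. A record was called high in a mark at 50% coverage or more and low at 10% or less. That gave 1151 genes high in both marks (6.07% of all genes, 95% Wilson interval 5.74 to 6.42), 1045 high in H2AK119ub only (5.51%, 5.19 to 5.84) and 415 high in H3K27me3 only (2.19%, 1.99 to 2.41).

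The study profiled chromatin by ChIP-seq in 18 libraries, 2 for each of 9 groups. H2AK119ub, H3K27me3, H3K4me3, KDM2B and MYC came from parental cells with no treatment named in the labels, and H3K27ac from cells that carried an empty vector. The remaining groups, ATF4 in parental cells and the inputs of parental and empty-vector cells, were not analysed here. Each of the 6 targets used here has 1 peak list that does not resolve its 2 libraries, so no value here has a replicate error and no test between conditions was possible. Wilson intervals cover counting error only, and neighbouring genes share domains, which makes them too narrow. All members of the mesenchymal marker set that lie on these chromosomes, VIM, CD44, AXL, CAV1, ZEB1 and FN1, had H3K4me3 and H3K27ac peaks, and none was covered to 50% by either Polycomb mark. The 6 luminal markers also had H3K4me3, and all but PGR had H3K27ac, so these peaks do not separate the cell types. PTPRC, a blood cell marker, had peaks of both active marks as well, with highest folds of 9.23 for H3K4me3 and 13.3 for H3K27ac, while CD3E and SPI1 had no H3K27ac peak.

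Polycomb proteins keep developmental and tissue-specific genes silent. PRC1 attaches a single ubiquitin to histone H2A through RING1 or RNF2, which gives H2AK119ub, and PRC2 trimethylates histone H3 through EZH1 or EZH2, which gives H3K27me3. Each complex can be drawn to the other's mark, through CBX proteins in canonical PRC1 and through JARID2 and AEBP2 in PRC2. Variant PRC1 complexes, such as ncPRC1.1 with KDM2B and PCGF1, can ubiquitinate H2A without prior H3K27me3.

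The start regions of 2 genes from each class show what the classes look like in sequence: the highest-ranked genes of the class with a promoter in the RefSeq table (GRCh38.p14). Each window runs from 250 bases before the start site to 50 after it, and CG dinucleotides, the letters read the same on both strands, are in capitals. C14orf180 (chr14:104579514-104579813, plus strand) and MRGPRE (chr11:3232368-3232667, minus strand) were high in both marks, and all 300 bases of each lay under both. HGFAC (chr4:3441718-3442017, plus strand) and NEU4 (chr2:241808943-241809242, plus strand) were high in H2AK119ub only, with all 300 bases under that mark and 0 under H3K27me3. IL17F (chr6:52244451-52244750, minus strand) and HSD3B2 (chr1:119414681-119414980, plus strand) were high in H3K27me3 only, with all 300 bases under that mark and 0 under H2AK119ub.
C14orf180: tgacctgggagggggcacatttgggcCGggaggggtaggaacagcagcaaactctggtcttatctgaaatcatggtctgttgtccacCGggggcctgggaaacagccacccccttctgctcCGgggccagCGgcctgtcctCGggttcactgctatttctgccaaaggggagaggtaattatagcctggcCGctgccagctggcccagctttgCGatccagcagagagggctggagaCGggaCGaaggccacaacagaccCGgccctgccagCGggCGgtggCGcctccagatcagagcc
MRGPRE: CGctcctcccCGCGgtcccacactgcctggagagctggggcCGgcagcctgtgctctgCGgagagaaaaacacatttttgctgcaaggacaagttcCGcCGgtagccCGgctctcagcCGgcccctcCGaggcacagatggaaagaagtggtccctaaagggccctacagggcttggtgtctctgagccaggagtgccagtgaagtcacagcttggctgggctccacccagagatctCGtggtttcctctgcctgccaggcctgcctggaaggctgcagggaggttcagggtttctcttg
HGFAC: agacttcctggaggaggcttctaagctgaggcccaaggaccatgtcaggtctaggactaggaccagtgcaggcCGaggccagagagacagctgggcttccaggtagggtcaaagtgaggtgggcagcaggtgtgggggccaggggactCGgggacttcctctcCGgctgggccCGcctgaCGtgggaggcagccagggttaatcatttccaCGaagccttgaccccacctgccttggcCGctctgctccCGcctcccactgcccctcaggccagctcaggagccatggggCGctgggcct
NEU4: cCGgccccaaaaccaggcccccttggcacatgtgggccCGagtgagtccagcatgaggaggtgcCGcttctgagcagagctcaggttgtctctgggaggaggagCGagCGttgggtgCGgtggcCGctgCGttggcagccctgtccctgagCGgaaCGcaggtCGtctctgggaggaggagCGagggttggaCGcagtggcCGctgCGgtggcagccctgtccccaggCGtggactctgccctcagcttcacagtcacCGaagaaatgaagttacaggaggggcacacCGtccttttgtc
IL17F: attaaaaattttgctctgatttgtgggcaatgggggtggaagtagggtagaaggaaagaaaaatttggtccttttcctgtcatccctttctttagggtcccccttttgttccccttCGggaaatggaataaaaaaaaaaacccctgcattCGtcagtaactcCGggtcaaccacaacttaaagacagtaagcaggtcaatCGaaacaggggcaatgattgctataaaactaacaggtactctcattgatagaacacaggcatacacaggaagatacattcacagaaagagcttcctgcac
HSD3B2: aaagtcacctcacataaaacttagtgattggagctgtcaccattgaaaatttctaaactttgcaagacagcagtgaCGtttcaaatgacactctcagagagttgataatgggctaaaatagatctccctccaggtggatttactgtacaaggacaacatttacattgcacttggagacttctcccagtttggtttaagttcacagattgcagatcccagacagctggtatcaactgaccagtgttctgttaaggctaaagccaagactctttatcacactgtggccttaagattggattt
The windows held 13, 11, 9, 18, 4 and 1 CG in that order, against a median of 22 over the 15101 genes with a window, of which 98.1% held at least 1. NEU4 was the only gene of the 6 whose window touched another list, with 74 bases under H3K4me3 and 209 under MYC. Promoter composition was not compared between classes: the table covers 68.6% of the genes high in both, 73.3% of those high in H2AK119ub only and 79.5% of those high in H3K27me3 only, below the 80% set as a minimum, so that check is void.

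The peaks of the 2 marks overlapped in part. H2AK119ub peaks covered 167 Mb of chromosomes 1 to 22 and H3K27me3 peaks 354 Mb, with 104 Mb in common. The common length was 62.2% of the H2AK119ub footprint and 29.4% of the H3K27me3 footprint. At least 50% of the record was under H2AK119ub in 2583 genes (13.6% of all) and under H3K27me3 in 2635 (13.9%). The median gene had 1.22% of its record under H2AK119ub and 0% under H3K27me3, and the upper quartiles were 25.0% and 7.59%. Across genes the coverages rose together, with a Spearman rho of 0.495 and a Pearson r of 0.500 (n = 18973 genes, which share domains and record lengths and are not replicates). In 4 bins of record length with equal numbers of genes, rho was 0.410 for the shortest records, then 0.497 and 0.557, and 0.634 for the longest.

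Most genes carried little of either mark. Both coverages were at most 10% in 10956 genes (57.7%), and 7203 genes had no peak of either mark. Between the classes, 2405 genes had H2AK119ub of 10% to 50% with low H3K27me3, and 1069 had that middle level of H2AK119ub with high H3K27me3. The remaining combinations were middle H3K27me3 with high (387 genes), middle (656) or low (889) H2AK119ub. High H2AK119ub occurred without H3K27me3 more often than the converse. Among genes high in H2AK119ub, 40.5% had at most 10% H3K27me3 (95% Wilson interval 38.6 to 42.4). Among genes high in H3K27me3, 15.7% had at most 10% H2AK119ub (14.4 to 17.2). Both shares were below those of all genes, of which 57.7% were low in both marks. Over all genes low H3K27me3 was the more common: a further 5.51% and 12.7% had it with high and middle H2AK119ub. Low H2AK119ub with high and middle H3K27me3 made up 2.19% and 4.69%. With peaks of q under 1e-5 the H2AK119ub-only and H3K27me3-only classes held 794 and 671 genes. The classes also differed in how empty the low mark was. Of the 1045 genes high in H2AK119ub only, 919 (87.9%) had no H3K27me3 peak, against 68.4% of all genes. Of the 415 high in H3K27me3 only, 135 (32.5%) had no H2AK119ub peak, against 41.5% of all genes. In bulk chromatin, a mark in part of the cells and a weaker mark in all of them cannot be told apart, and both marks on a record do not show that they share a nucleosome.

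**Figure D1:**
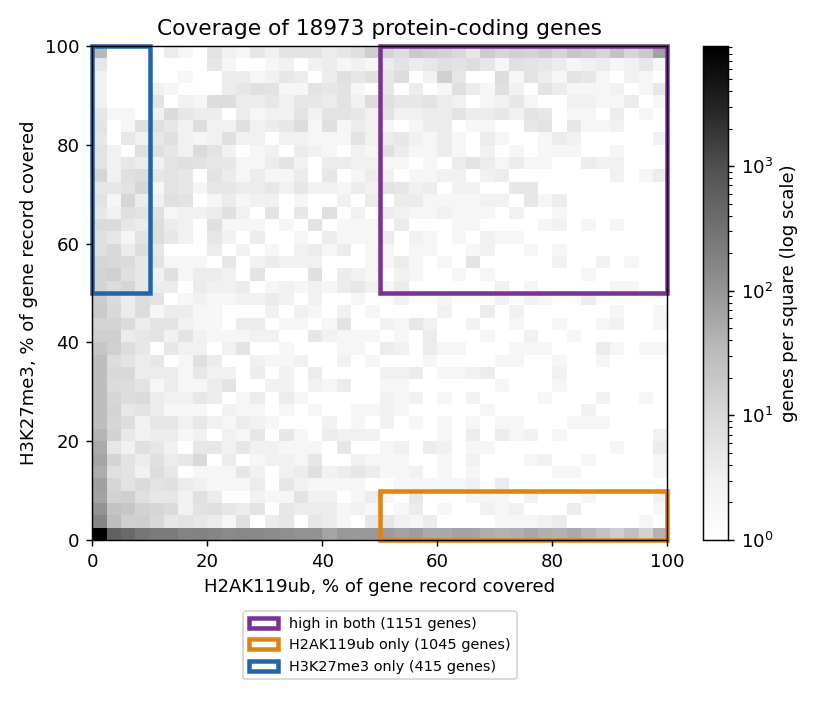
Density of 18973 genes by the percent of the gene record covered by H2AK119ub (x axis) and by H3K27me3 (y axis), with the number of genes per square on a log grey scale and the 3 classes outlined. Genes gather at the origin and along both axes, and the outlined areas hold 1151, 1045 and 415 genes.

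Most of the genes with the highest coverage by both marks are known from other tissues. C14orf180, MRGPRE, a sensory-neuron receptor, KRT17, a keratin of basal epithelium, and GPR142, a receptor of pancreatic islets, had 100% of their records under each mark. KRT17 (chromosome 17, 41619442 to 41624575 in hg38) lay inside a single H2AK119ub peak with a fold of 3.28 and a single H3K27me3 peak with a fold of 4.29. AGXT, a liver enzyme that detoxifies glyoxylate (chromosome 2, 240868824 to 240880500), had 98.7% under H2AK119ub and 99.1% under H3K27me3. The pancreatic aquaporin gene AQP12A had 98.7% and 100%, and BPIFB3, of a family of secreted lipid-binding proteins, 97.4% and 100%. None of MRGPRE, KRT17, GPR142, AQP12A, AGXT and BPIFB3 had a peak of H3K4me3, H3K27ac, MYC or KDM2B. C14orf180 had 1 H3K4me3 peak, of fold 2.35, and no H3K27ac, MYC or KDM2B peak. ZMYND15, a gene of male germ cells, had 100% and 98.4% beside H3K4me3 of fold 37.4, KDM2B of 4.59 and MYC of 4.53. Its record overlaps another gene record, so these peaks may lie in shared bases. With both lists reduced by fold to equal footprints, the lower coverage of MRGPRE, KRT17 and ZMYND15 was 0 and they left the class, while C14orf180, GPR142, AQP12A, AGXT and BPIFB3 stayed in it.

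Very long genes were covered as well. RBFOX3, which encodes the neuronal marker NeuN, is 576 kb long and had 82.9% under H2AK119ub and 88.7% under H3K27me3. DSCAML1, a neuronal adhesion gene of 390 kb, had 75.8% and 98.6% and no peak of the other 4 lists. In CDH23, a cadherin of hair cells, the shares were 81.3% and 91.9% over 419 kb. FSTL4 had 53.6% and 89.7% over 646 kb. KCNQ1, a potassium channel gene of the heart and of epithelia, had 58.7% and 66.7% over 404 kb, with 17 H3K4me3 peaks and 6 KDM2B peaks in the same record. H3K27me3 lay in fewer and wider peaks than H2AK119ub at most of these genes: 15 peaks against 175 at DSCAML1, and 110 against 348 at FSTL4, while KCNQ1 had 135 against 109.

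In genes high in both marks, the rule itself fixes much of the overlap. Of the H2AK119ub bases in these records 90.9% were under H3K27me3, which covered 83.2% of all their bases, and of the H3K27me3 bases 74.4% were under H2AK119ub, which covered 68.0%. Records of 5 kb or more were cut into 10 parts from each end to the middle, and mean H3K27me3 coverage was 74.1% in the outermost parts and 86.7% in the innermost, while H2AK119ub stayed between 70.1% and 72.9%. The domains went past the records: in the 10 kb on each side, median coverage was 41.7% for H2AK119ub and 69.5% for H3K27me3, against 2.90% and 0% over all genes.

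The longest stretch of neighbouring genes high in both marks held 14 keratin genes on chromosome 12 (52314301 to 52652211), from KRT83 to KRT2. Keratins are the intermediate filaments of epithelia and hair. H3K27me3 covered 87.6% of these 338 kb and H2AK119ub 49.6%, and no H3K4me3 or KDM2B peak fell inside. KRT5, the keratin of basal cells, had 57.2% H2AK119ub and 100% H3K27me3, KRT6A 72.4% and 100%, and KRT71 89.3% and 100%. For comparison, the longest stretch high in H2AK119ub only held 13 genes on chromosome 16 (527712 to 684334), from CAPN15 to JMJD8, with STUB1, a ubiquitin ligase, among them. There H2AK119ub covered 59.6%, H3K27me3 0%, H3K4me3 71.4% and H3K27ac 38.0% of the 157 kb, with 9 KDM2B peaks. In the longest stretch high in H3K27me3 only, 7 olfactory receptor genes on chromosome 11 (5880629 to 6034338), H3K27me3 covered 46.1% of the 154 kb and H2AK119ub 5.91%. The OR56A3 record there overlaps those of OR56A5, OR52L1, OR56A4 and OR56A1, so these share bases. A further stretch of 13 H2AK119ub-only genes lay on chromosome 8, with DGAT1, an enzyme of triglyceride synthesis, and CPSF1 among them. It counts the joined record TMEM276-ZFTRAF1 beside ZFTRAF1.

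**Figure D2:**
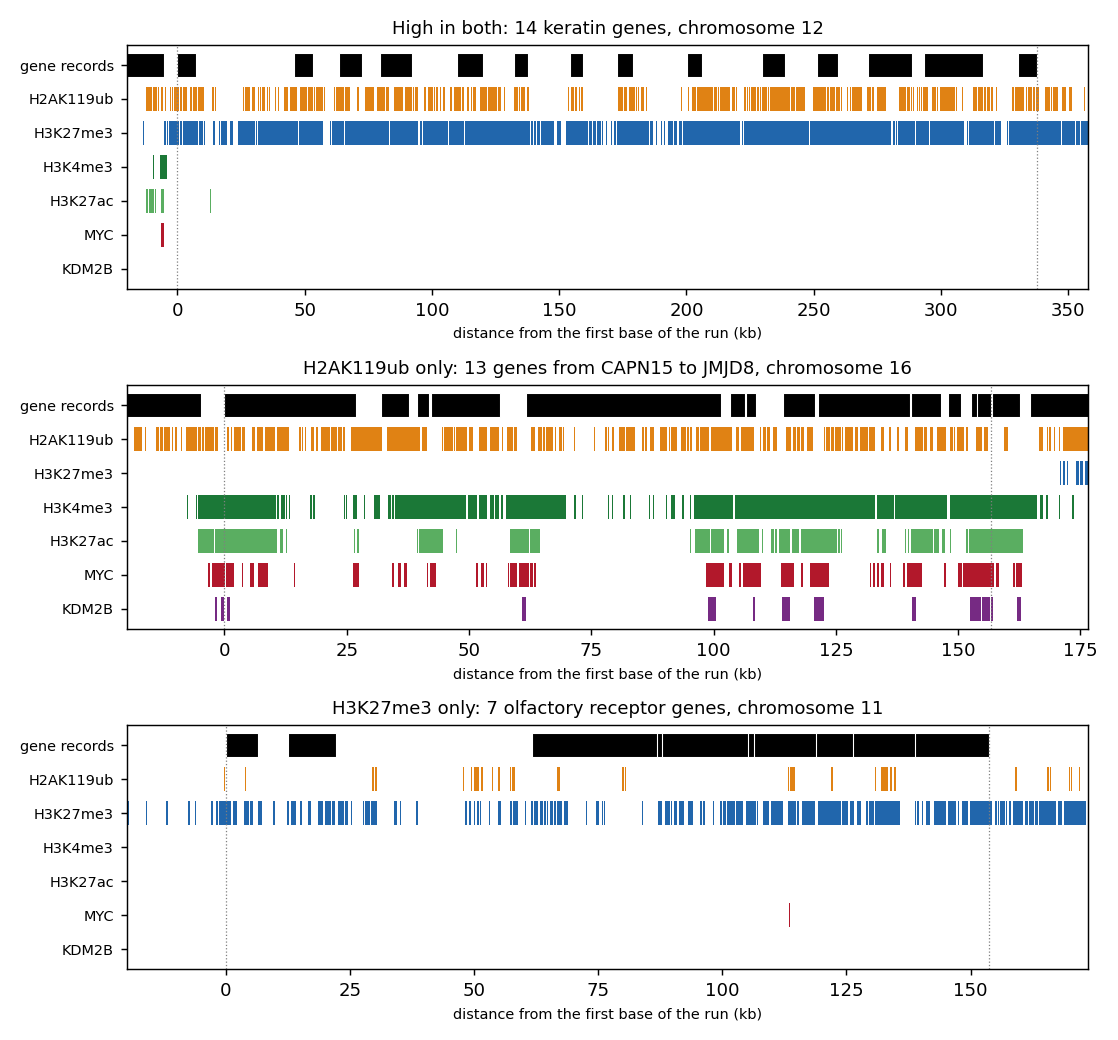
Peaks of the 6 lists and gene records (rows) along the longest stretch of neighbouring genes in each class, by distance in kb from its first base, with dotted lines at its ends and 20 kb shown on each side. H3K27me3 fills 87.6% of the keratin stretch with H2AK119ub inside it, active marks fill the chromosome 16 stretch beside H2AK119ub, and the olfactory receptor stretch has H3K27me3 with 5.91% H2AK119ub.

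Genes high in H2AK119ub only included genes with and without active marks. MKNK2, a kinase of the translation factor eIF4E (chromosome 19, 2037471 to 2051244), had 96.2% of its record under H2AK119ub and no H3K27me3, together with H3K27ac of fold 64.9, H3K4me3 of 46.7 and 3 KDM2B peaks. RIN1, an effector of RAS, had 95.8% under H2AK119ub with H3K4me3 of 37.9 and KDM2B of 3.56. CARD9, an adaptor of innate immunity, had 95.9% with H3K4me3 of 46.5 and no KDM2B peak. ARRB2, the gene of beta-arrestin, had 99.4% H2AK119ub and 4.27% H3K27me3, and SECTM1 97.7% and 2.03%. NAPRT, an enzyme of NAD synthesis, had 95.7% and no H3K27me3, with 2 KDM2B peaks, but 44.4% with equal footprints. HGFAC, a liver protease, was at 100% H2AK119ub with no H3K4me3, H3K27ac or KDM2B peak, and NEU4, a sialidase, at 100% with H3K4me3 of fold 6.75. Long members were ZMIZ1 with 68.0% over 248 kb, GSE1 with 62.2% over 507 kb, CDH4 with 57.1% over 688 kb and MAD1L1 with 51.2% over 417 kb. CDH4 had 7.39% H3K27me3, under the limit of 10%, GSE1 had 0.318%, and ZMIZ1 and MAD1L1 had none. These 4 genes had H3K4me3 peaks, with highest folds of 44.1 to 53.5, and at least 2 KDM2B peaks.

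Over the records of all genes, H2AK119ub covered 16.8% of the bases under H3K4me3 and 6.95% of the others, and H3K27me3 3.17% and 12.1%. In the H2AK119ub-only genes, where the rule sets a high coverage, H2AK119ub covered 68.5% of the bases under H3K4me3 and 64.5% of the other bases, and 63.4% of the bases under H3K27ac against 66.8% of the others. In genes high in both marks it covered 73.8% of H3K4me3 bases and 67.7% of the rest, but 53.8% of H3K27ac bases and 68.2% of the rest. H3K27me3 there was lower on both active marks. It covered 52.9% of the bases under H3K4me3 against 84.8% of the rest, and 7.84% of the bases under H3K27ac against 84.2%. Toward the ends of the H2AK119ub-only records of 5 kb or more, mean H2AK119ub coverage fell by position from 73.4% in the innermost parts to 53.1% in the outermost.

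Among the 415 genes high in H3K27me3 only, the highest-ranked included genes of defence, smell and reproduction, and the longest were neuronal adhesion and signalling genes among others. IL17F, a cytokine of T cells (chromosome 6, 52236681 to 52245689), had 93.0% under H3K27me3 and no H2AK119ub. HSD3B2, a steroid enzyme of adrenal and gonad (chromosome 1, 119414931 to 119423034), had 94.95% and 7.72%, and its near neighbour HAO2, an oxidase of hydroxy acids, 85.0% and 2.66%. EDDM3A, an epididymal protein gene, had 96.6% and 5.48%. The beta-defensin genes DEFB118 and DEFB123 had 89.4% and 88.9% H3K27me3. MS4A1, the gene of the B cell antigen CD20, had 86.5% with 2.49% H2AK119ub, and the olfactory receptor OR56A4 85.8% with 3.84%. None of these 8 genes had a peak of H3K4me3, H3K27ac, MYC or KDM2B. The longest members were CSMD1 (2060 kb, 52.6% H3K27me3), DAB1, an adaptor of reelin signalling (1552 kb, 58.4%), CNTN4, a neuronal adhesion gene (959 kb, 73.8%), the calcium channel subunit CACNA2D3 (952 kb, 58.7%) and HPSE2 (859 kb, 73.1%). DAB1 also had H3K4me3 of fold 74.5 and H3K27ac of 52.5. Of the few H2AK119ub bases in the records of this class 96.7% were under H3K27me3, which covered 61.6% of all their bases.

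The size of this class depended on the settings. It fell to 242 genes when low meant at most 5%, and rose to 671 with peaks of q under 1e-5, of which 265 were among the 415. With both lists reduced by fold to the same footprint of 83.7 Mb it held 92 genes, of which 9 were among the 415, and the 8 genes just named as highest were not in it. The limits cut through a continuous range. CFAP61 and NRAP were just inside, at 50.01% and 50.03% H3K27me3, and CFAP161 and TEKT5 just outside, at 49.9% and 49.8%. For H2AK119ub only, RNF225 at 50.0% and EPHB2 at 50.1% were inside and TMEM201 at 49.98% and RNF123 at 49.9% outside. For both marks, STMN4 and GPR162 were inside, with a lower coverage of 50.03% and 50.04%, and TBC1D3E and TUBB4A outside, with 49.99% and 49.98%.

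The classes differed in marks that had no part in choosing them. H3K4me3, a mark of promoters, had a peak in the record of 77.6% of all genes. Peaks anywhere in the record were counted, not only those at the start of the gene. H3K4me3 was in 88.1% of those high in H2AK119ub only (95% Wilson interval 86.03 to 89.96). It was in 39.97% of those high in both (37.2 to 42.8) and in 22.2% of those high in H3K27me3 only (18.4 to 26.4). H3K27ac, found at active promoters and enhancers, was in 71.6% of all genes and in 77.1%, 15.7% and 10.6% of the classes in that order. MYC was in 72.5% of all genes and in 82.1%, 34.4% and 15.2%. KDM2B, the CpG-binding subunit of ncPRC1.1, was in 50.6% of all genes, in 64.8% of those high in H2AK119ub only (61.8 to 67.6), in 13.8% of those high in both (11.9 to 15.9) and in 7.23% of those high in H3K27me3 only (5.11 to 10.1). Over all record lengths, genes low in both marks had H3K4me3 in 85.9%, H3K27ac in 85.2%, MYC in 82.0% and KDM2B in 58.4%. These were close to the shares of the H2AK119ub-only genes, which were lower for H3K27ac and higher for KDM2B. The shares of the H2AK119ub-only genes above those of all genes depended on the peaks used. With equal footprints they were below all genes in each list, at 73.9% for H3K4me3, 51.9% for H3K27ac, 65.1% for MYC and 42.2% for KDM2B. With high at 75% the H3K27ac share was 70.6%. With peaks of q under 1e-5 in all 6 lists the shares were 83.8%, 69.4%, 72.3% and 50.5%. The shares of all genes under that limit were not taken. No test over genes was run, since neighbouring genes share peaks.

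**Figure D3:**
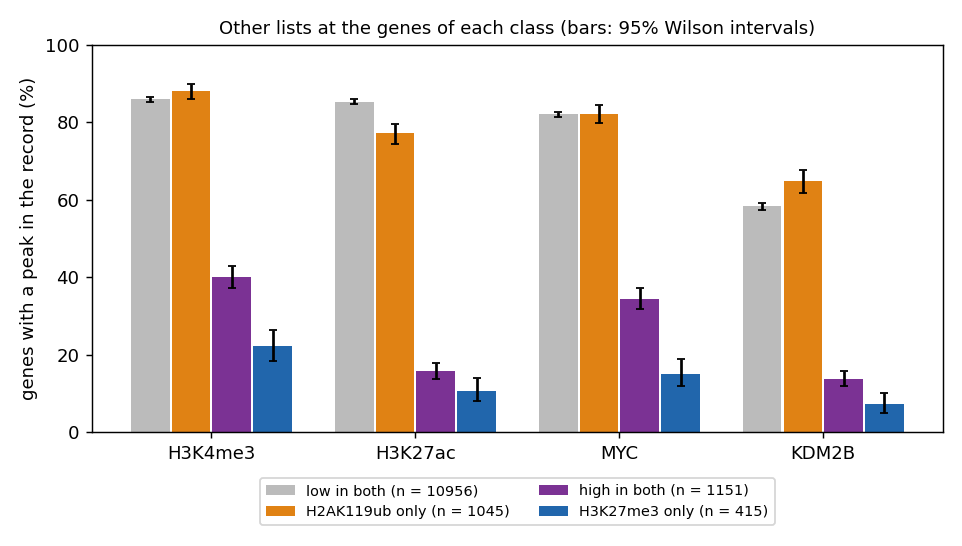
Percent of genes with at least 1 peak of H3K4me3, H3K27ac, MYC or KDM2B in the record, by class of the gene, with 95% Wilson intervals as error bars. Over all record lengths, genes high in H2AK119ub only stand near genes low in both marks (64.8% and 58.4% for KDM2B). The other 2 classes stand below them in every list.

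A longer record can hold more peaks, and the classes differ in length, so the shares were also taken over records of 5 to 20 kb. KDM2B was then in 71.2% of genes high in H2AK119ub only, 11.8% of those high in both and 1.82% of those high in H3K27me3 only, against 44.9% of all genes of that length. H3K4me3 was in 92.3%, 38.4% and 8.18%, against 72.6%. Genes of that length low in both marks had H3K4me3 in 81.1%, H3K27ac in 80.7%, MYC in 77.3% and KDM2B in 51.8%. The H2AK119ub-only genes were above them in each list, at 92.3%, 83.2%, 89.7% and 71.2%. Of the genes high in both marks, 687 (59.7%) had neither H3K4me3 nor H3K27ac, 283 (24.6%) had H3K4me3 without H3K27ac and 177 (15.4%) had both active marks. Those with both active marks had a median record of 41509 bp, against 6210 bp for those with neither. Among genes high in H2AK119ub only, 794 (76.0%) had both active marks and 112 (10.7%) neither. The 40 H3K27me3-only genes with both active marks (9.64%) had a median record of 178782 bp, and the 319 with neither (76.9%) one of 8480 bp.

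The classes differed in length and surroundings. The median record was 10270 bp for genes high in both marks, 8374 bp for H2AK119ub only and 13487 bp for H3K27me3 only, against 24830 bp over all genes, and a short record reaches 50% with fewer peaks. Other protein-coding genes within 500 kb numbered 28 at the median H2AK119ub-only gene, 18 at genes high in both, 15 at H3K27me3-only genes and 12 over all genes. In places with 31 or more such neighbours, 15.5% of genes were high in H2AK119ub only, and in places with 5 or fewer 0.732%. The share high in H3K27me3 only stayed between 1.33% and 3.17% over the same range. The part of gene density in the other comparisons was not tested.

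**Figure D4:**
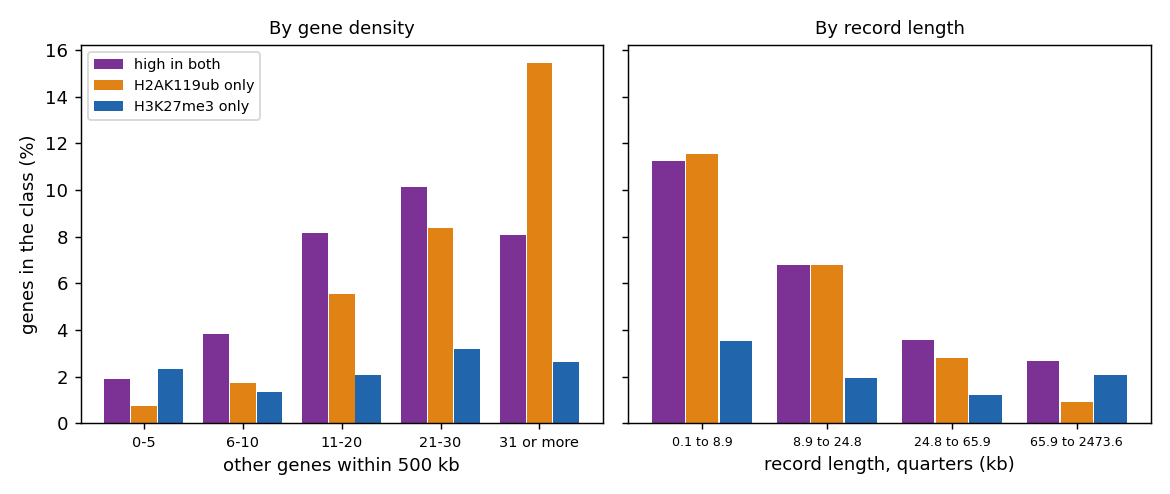
Percent of genes in each class (bars) by the number of other protein-coding genes within 500 kb (left) and by record length in kb, in 4 bins of equal numbers of genes (right). The H2AK119ub-only share rises from 0.732% to 15.5% with gene density, and it falls from 11.5% among the shortest records to 0.928% among the longest.

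Genes of the Polycomb system were low in both marks in 8 of 11 cases for PRC2, 6 of 13 for canonical PRC1, 17 of 21 for variant PRC1 and 8 of 12 for the erasers, against 57.7% of all genes. Among PRC2 genes, EZH2, EED, SUZ12, RBBP4, MTF2 and AEBP2 had no peak of either. EPOP, a cofactor of PRC2, had 85.6% H2AK119ub and no H3K27me3, PHF1 40.4% and none, and PHF19 18.7% with 5.28% H3K27me3. Among 13 canonical PRC1 genes the median H2AK119ub coverage was 23.05%, against 1.22% over all genes, with CBX2, at 69.2%, high in H2AK119ub only. CBX7 had 43.0%, CBX8 34.3% and CBX6 29.8%, all without H3K27me3. Of 21 variant PRC1 genes, FBRSL1, a relative of AUTS2, was at 76.6% H2AK119ub, and KDM2B itself at 14.5% with no H3K27me3. The erasers were in no class: KDM6B, an H3K27 demethylase, had 32.2% H2AK119ub, and BAP1, the catalytic subunit of the H2AK119 deubiquitinase, 18.3%.

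Most developmental regulators were in no class, as were most genes: 13.8% of all genes were in any of the 3 classes. Of 108 homeobox factors outside the HOX clusters, 30 (27.8%) were high in both marks, against 6.07% of all genes, 8 were high in H2AK119ub only and none in H3K27me3 only, with medians of 35.1% H2AK119ub and 25.0% H3K27me3 against 1.22% and 0% over all genes. DLX3, of skin and bone development, had 96.6% and 96.5%, BSX, a hypothalamic factor, 94.8% and 100%, and TLX1, of the spleen, 90.03% and 100%. H3K4me3 was present in 11 of the 30. Among the 39 HOX genes only HOXB13, HOXD12 and HOXC12 were high in both (7.69%) and HOXB1 in H2AK119ub only, while the median H2AK119ub coverage was 32.4%. Of 105 other developmental factors, 19 were high in both (18.1%), with the muscle regulator MYOD1 at 92.6% and 100% and the endoderm factor GATA5 at 93.3% and 90.8%. WNT, BMP, FGF and hedgehog ligands had 11 of 55 in both (20%) and 7 in H2AK119ub only (12.7%, against 5.51% of all genes). IHH had 96.9% and 96.4%, FGF3 100% and 90.9%, and BMP7 82.0% and 92.6%. WNT7B, with 84.3% H2AK119ub and no H3K27me3, and WNT10B, with 62.2%, were among the 7.

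Genes of differentiated tissues differed in their share high in both marks, which was 6.07% over all genes. Keratins had 25 of 55 (45.5%), with medians of 51.5% H2AK119ub and 82.4% H3K27me3, and KRT16 stood beside KRT17 at 100% and 99.9%. Potassium channels had 23 of 71 (32.4%), with KCNH2 at 87.5% and 92.8% and KCNK17 at 85.4% and 98.7%, and 15 of the 23 had H3K4me3. Striated muscle genes had 10 of 36 in both (27.8%) and 5 in H3K27me3 only (13.9%, against 2.19% of all genes). The troponin gene TNNI2 had 100% and 92.0%, and the myosin light chain gene MYL7 98.3% and 89.8%. Of 54 blood cell genes 7 were high in both, such as NKG7 at 100% for each mark, 7 in H2AK119ub only and 4 in H3K27me3 only. Luminal and epithelial genes had 7 of 41 in both: TFF3 had 92.7% and 100%, OVOL1, a repressor of mesenchymal genes, 87.9% and 91.5%, and KRT14 81.2% and 100%. CLDN3 and CLDN7, of tight junctions, were high in H2AK119ub only, at 78.8% and 53.2%. In a list of 31 mesenchymal and basal genes, which holds no keratins, none was high in both, against 6.07% of all genes. The basal keratins KRT5, KRT14 and KRT17 were high in both and are counted among the keratins. KRT14 and KRT17 are also counted among the luminal and epithelial genes. SNAI1, a repressor of E-cadherin in the mesenchymal and basal list, had 87.2% H2AK119ub without H3K27me3. Glutamate and GABA receptors had 5 of 43 in both (11.6%), GRM4 among them at 92.3% and 97.1%, and neuronal adhesion and synapse genes, with 4 of 50 (8%), were near the share of all genes. MHC class II genes had 2 of 15, HLA-DQB2 and HLA-DOA. With equal footprints of the marks, which left 224 genes high in both, 8 keratins, 7 homeobox factors, 4 striated muscle genes and 2 potassium channels were in that class.

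Olfactory receptor genes were the main family in the class with H3K27me3 only. Of 388, 89 were in it (22.9%, against 2.19% of all genes) and 36 were high in both (9.28%, against 6.07%). None was in H2AK119ub only, against 5.51% of all genes. The medians were 43.6% H3K27me3 and 0% H2AK119ub. With equal footprints 16 receptors were in the H3K27me3-only class, and over records of at least 5 kb 34 were. OR52L1 and OR10G2 had 100% H3K27me3 and no H2AK119ub. Their median record was 3035.5 bp, which a few peaks can cover. Without them, a choice made after the values were seen, the class held 326 genes, and H3K4me3 was in 27.6% of them in place of 22.2%. Of 42 collagens, genes of extracellular matrix, 5 were high in H2AK119ub only (11.9%, against 5.51% of all genes): COL7A1 had 91.7%, COL6A1 87.7%, COL18A1 76.0% and COL1A1 70.8%, and 3 other collagens were high in both (7.14%).

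Several families had none or few members in any class. Over all genes, 13.8% were in a class, 57.7% were low in both marks and 38.0% had no peak of either. All 75 cytosolic ribosomal protein genes and all 31 proteasome genes were outside the classes, and 65 and 25 of them had no peak of either mark. The 246 zinc finger genes of chromosome 19 were outside as well, 208 of them without a peak of either mark. So were the 53 clustered protocadherins, 35 of which were low in both. Their records overlap and form 18 groups, so they are not 53 separate observations. Of 69 clustered histone genes only H2AC25 and H2BC26, both on chromosome 1, were high in both marks.

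Since the study's title concerns amino acid metabolism, 30 genes of serine, one-carbon, asparagine and glutamine metabolism and amino acid transport, with ATF4 and MYC, were placed on the same scales. None was high in both marks, 23 were low in both and 15 had no peak of either, against 6.07%, 57.7% and 38.0% of all genes. SLC7A5, the carrier of large neutral amino acids (chromosome 16, 87830023 to 87869507), had 66.8% H2AK119ub and no H3K27me3, with 6 KDM2B peaks, and PYCR1, of proline synthesis, 81.0% and 0%. PHGDH, the first enzyme of serine synthesis, was the only member with high H3K27me3, at 87.4%, with 40.4% H2AK119ub. ALDH1L1, of folate metabolism, had 36.4% and 45.9%. MYC had 31.6% H2AK119ub and no H3K27me3, and ASNS had 1.85% and 3.15%. ATF4, PSAT1, PSPH and SLC7A11 had no peak of either mark.

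**Figure D5:**
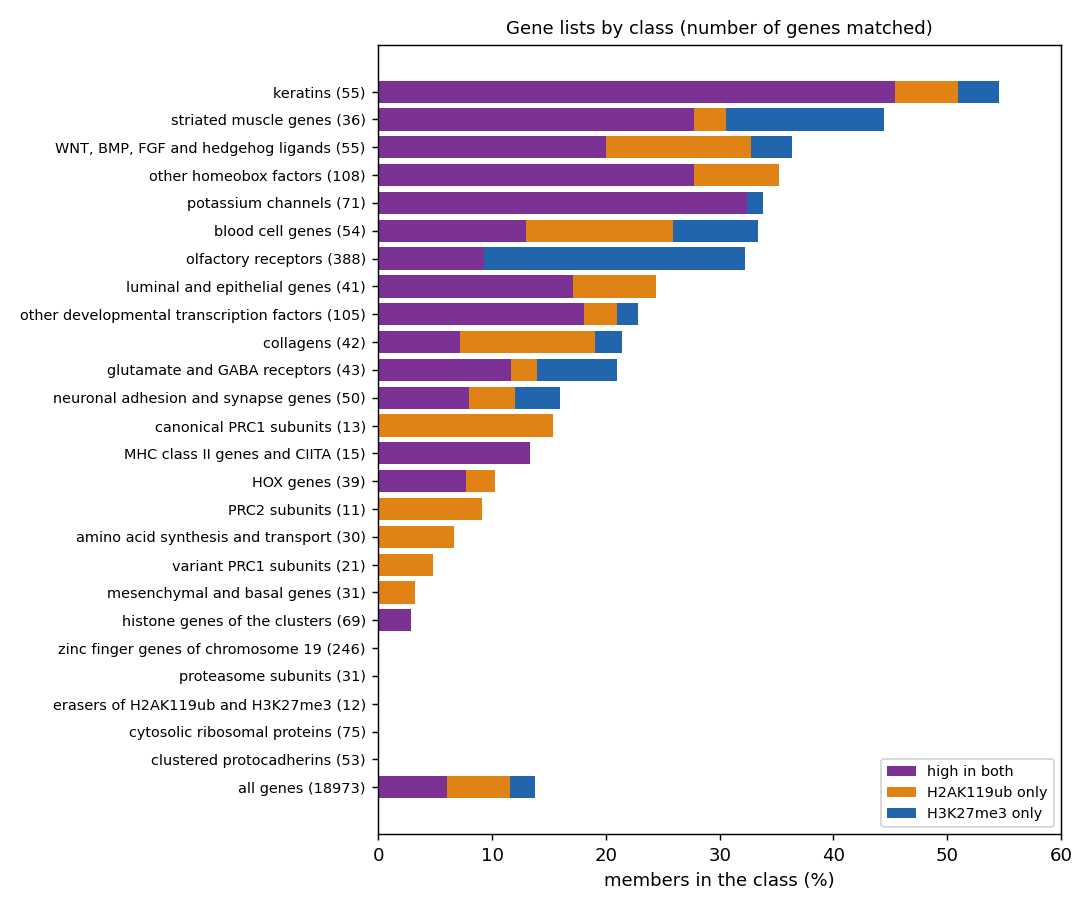
Percent of the members of 25 gene lists in each class (stacked bars), with the number of genes matched in brackets and all 18973 genes at the bottom. Keratins have the highest sum and olfactory receptors the widest H3K27me3-only bar, while ribosomal protein, proteasome and chromosome 19 zinc finger genes have none.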

How the data were processed

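H2AK119ub and H3K27me3 peaks were compared over protein-coding gene records. The submitters' processing notes name build hg38 and, without their order, MACS2 2.2.7.1, SAMtools 1.6, Bowtie2 2.4.5 and Trim Galore. Chromatin was digested with enzyme, per the labels' protocols. The control of each list and whether libraries were pooled are not given in the sources used here. Each deposited peak has a score, a fold over background (a ratio), a −log10 q, and a −log10 p and summit position, which were not used. Folds are the authors' and describe peaks within their own list. The lists give no read counts, so depth is unknown.

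Coverage is the number of bases of a record under the merged peaks of a mark, divided by record length. Records came from RefSeq GRCh38.p14. 153 records that carry a chromosome name but lie on other sequences of the assembly were left out. A mark or factor was counted at a gene when at least 1 base of a peak fell in the record. Python 3.11.15, numpy 2.4.6, pandas 2.3.3, scipy 1.17.1 and matplotlib 3.10.9 were used, and the coverage code was tested on simulated peaks. Strand is known only for genes with a promoter in the table, so records were not oriented.

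Named genes were, per class, the 8 of highest coverage and the 5 longest among records of 5 kb or more, 2 on each side of the limit, up to 4 per gene list, all members of small counts and 6 genes of the study's title; rank was by the lower coverage for both marks, and by the difference for 1 mark. Other names, such as members of a list with middle coverage, were chosen after their values were seen. The classes, the 25 gene lists and the rule were chosen with earlier results of these data known. Other settings changed the limits, the peaks, their joining, the footprint or the records (11 settings), and 2 more (records on other sequences kept, olfactory receptors left out) were chosen after seeing the data. The q limit was applied to all 6 lists, and joining and equal footprints only to the 2 marks. Some genes that the rule names are not reported here.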

Additional observations from a re-analysis of the deposited data

How the results depend on the processing

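The counts of the 3 classes (both marks, H2AK119ub only, H3K27me3 only) moved with the limits: 2194, 2237 and 880 genes with high at 25%, and 418, 391 and 130 at 75%. H3K27me3 only held 242 with low at 5% and 858 at 25%, and 671 with q under 1e-5. Joining peaks across 3 kb gave 2273, 2275 and 633, and across 1 kb 1571 for H2AK119ub only. Equal footprints gave 224 for both and 92 for H3K27me3 only, and records of at least 5 kb 686 for H2AK119ub only. Equal footprints took rho to 0.368, and the other settings that change peaks or records kept it within 0.05 of 0.495. The share with H3K4me3 in the record, for both marks, was 47.4% and 29.4% with high at 25% and 75%, 33.8% with q under 1e-5, 45.4% and 43.9% with joining across 3 and 1 kb, 26.8% with equal footprints, 45.0% with 1 kb added and 50.4% over records of at least 5 kb. For H2AK119ub only it was 83.8% (q), 73.9% (equal footprints), 91.1% (1 kb added) and 94.3% (5 kb). For H3K27me3 only it was 33.2% and 3.08% (high at 25% and 75%), 12.8% and 29.6% (low at 5% and 25%), 8.70% (equal footprints), 26.8% (1 kb added), 31.5% (5 kb) and 27.6% without olfactory receptors. The KDM2B share for both marks was 18.0% and 9.09% (high at 25% and 75%), 9.91% (q), 16.9% (3 kb), 10.3% (equal footprints), 17.2% (1 kb added) and 18.4% (5 kb). For H2AK119ub only it was 67.9% and 55.0%, 61.8% (low at 25%), 50.5% (q), 67.7% (3 kb), 42.2% (equal footprints), 70.5% (1 kb added) and 77.7% (5 kb). For H3K27me3 only it was 11.2% and 0.769%, 4.96% (low at 5%), 3.87% (q), 2.17% (equal footprints) and 10.4% (5 kb). The order H2AK119ub only, both, H3K27me3 only held in all 14 settings for H3K4me3, MYC and KDM2B, and in 13 for H3K27ac, where low at 25% put H3K27me3 only at 15.734% and both at 15.726%. Beside these, 41 of 143 gene list counts moved by over 1.5 times, 48 of 78 H3K27ac and MYC shares left their interval, and 18 of 309 values put a named gene outside its class, 12 of them with equal footprints, where the difference for OR56A4 (H3K27me3 less H2AK119ub) turned to -3.84. The cause of these moves was not tested. Other settings for promoter sequence were not run, because that check was void. No paired analysis was possible because each target has 1 list that does not resolve its libraries, and leaving out a library was likewise not possible.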

Other observations

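Chromosomes differed in their share of each class. Genes high in both marks made up 13.97% of the genes of chromosome 20 and 11.9% of chromosome 17, against 0.524% of chromosome 4 and 0.893% of chromosome 13. H2AK119ub only was highest on chromosome 16, at 13.02%, then on chromosomes 17 (11.6%) and 22 (10.5%), and lowest on chromosome 18, at 0.746%. H3K27me3 only was highest on chromosome 11, at 7.09%, which carries the olfactory receptor stretch described above. Chromosome 19, with the highest median number of other genes within 500 kb (30), had 9.72% in H2AK119ub only and 0.993% in H3K27me3 only.

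Neighbouring genes often shared a class. The next gene on the chromosome was in the same class for 37.9% of genes high in both, 31.4% of those in H2AK119ub only and 24.3% of those in H3K27me3 only. The classes hold 6.07%, 5.51% and 2.19% of all genes. Overlapping records were counted as separate genes here, and they share bases, which fixes part of the agreement. After the keratins, the longest stretches high in both marks were 10 genes on chromosome 11 from SYT8 to TH, with IGF2, INS and the troponin genes TNNI2 and TNNT3, and 10 on chromosome 17 with CD300A, CD300C, CD300LB and CD300H, of a family of myeloid receptors. The chromosome 11 stretch counts the joined record INS-IGF2 beside IGF2 and INS. A stretch of 8 on chromosome 1 held the late cornified envelope genes of the skin, from LCE3A to KPRP. Stretches with H3K27me3 only included 6 beta-defensin genes on chromosome 20 and SLAMF6, CD84, SLAMF1 and CD48, receptors of lymphocytes, on chromosome 1.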
